A study of Drosophila melanogaster with 2 samples.

Results

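The homeotic gene complexes are the clusters of Hox genes that give body segments their identity, and Trl binding in them was read from a list of ChIP-seq peaks, the regions enriched when chromatin is immunoprecipitated and its DNA sequenced. Members were the peaks on chromosome arm 3R whose centre lay from 2480000 to 2830000, the window given for the Antennapedia complex with lab, pb, Dfd, Scr and Antp, or from 12480000 to 12810000, the window given for the bithorax complex with Ubx, abd-A and Abd-B. Positions are on build BDGP5 (Release 5), counted from 1. This gave 30 peaks, 12 in the Antennapedia complex and 18 in the bithorax complex, of 1243 on 3R and 5195 in the whole list. Within these windows, membership was decided by position alone, without regard to width or score.

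The chromatin came from whole Drosophila melanogaster embryos aged 16 to 24 h, from flies that the labels' protocol describes as iso1 (y; bw cn sp) or transgenic, without saying which were used here. It was fixed in 1.8% formaldehyde for 15 min and sonicated for 15 min, and DNA was recovered with the antibody KW3-Trl-D2. The 2 samples were 1 immunoprecipitate, whose title joins replicates 1 and 2, and 1 input of the same stage, and the peak list belongs to the immunoprecipitate. With 1 list there is no spread between replicates, so all comparisons here are descriptions without a test, and the read depth is unknown. Whole embryos mix many cell types, and a peak does not show in how many of the cells Trl was bound.

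The product of Trl (Trithorax-like) is the GAGA factor, which binds GA repeats through a zinc finger and keeps regulatory DNA open. It is counted among the trithorax group, whose members maintain active Hox expression. It is also known from Polycomb response elements, through which Hox genes are kept silent outside their own segments, and from chromatin boundaries between the regulatory domains of the bithorax complex. All 8 Hox proteins are homeodomain transcription factors. In the Antennapedia complex, lab (labial) acts in the head, pb (proboscipedia) in the mouthparts, Dfd (Deformed) in the jaw segments, Scr (Sex combs reduced) in the labial and foremost thoracic segments and Antp (Antennapedia) in the thorax. In the bithorax complex, Ubx (Ultrabithorax) acts in the hind thorax and front abdomen, abd-A in the middle of the abdomen and Abd-B at its end.

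The list names no gene for a peak, and the RefSeq gene table used here is on Release 6, another build, so it served for names and order only. In rising position it holds lab, pb, Dfd, Scr and Antp in that order, with 44 annotated genes from lab to Antp, 20 of them protein-coding. Between them lie the Hox-derived genes zen, zen2, bcd (bicoid, the anterior morphogen of the egg) and ftz (fushi tarazu, a pair-rule gene), the adhesion gene Ama and the microRNA gene mir-10. From Ubx to Abd-B it holds 16 genes, 6 of them protein-coding, and also the non-coding lncRNA:bxd, lncRNA:iab4 and lncRNA:iab8 and the microRNA genes mir-iab-4 and mir-iab-8. Which of these genes a given peak lies in or beside was not determined.

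Neither complex was crowded with Trl peaks. Together they held 44.1 peaks per Mb over 680 kb (95% exact Poisson interval 29.8 to 63.0, covering counting error only), beside 44.6 per Mb on 3R outside both. The Antennapedia complex had 34.3 peaks per Mb (17.7 to 59.9) and the bithorax complex 54.5 (32.3 to 86.2), intervals that overlap each other and both hold the value of the rest of the arm. These intervals take peaks as independent, and clustering of peaks along the arm would make them too narrow. The complexes differed in layout, a contrast read with measures added after the data had been seen. The Antennapedia complex began with a long stretch without any peak, whereas in the bithorax complex peaks were spread over nearly the whole window.

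**Figure D1:**
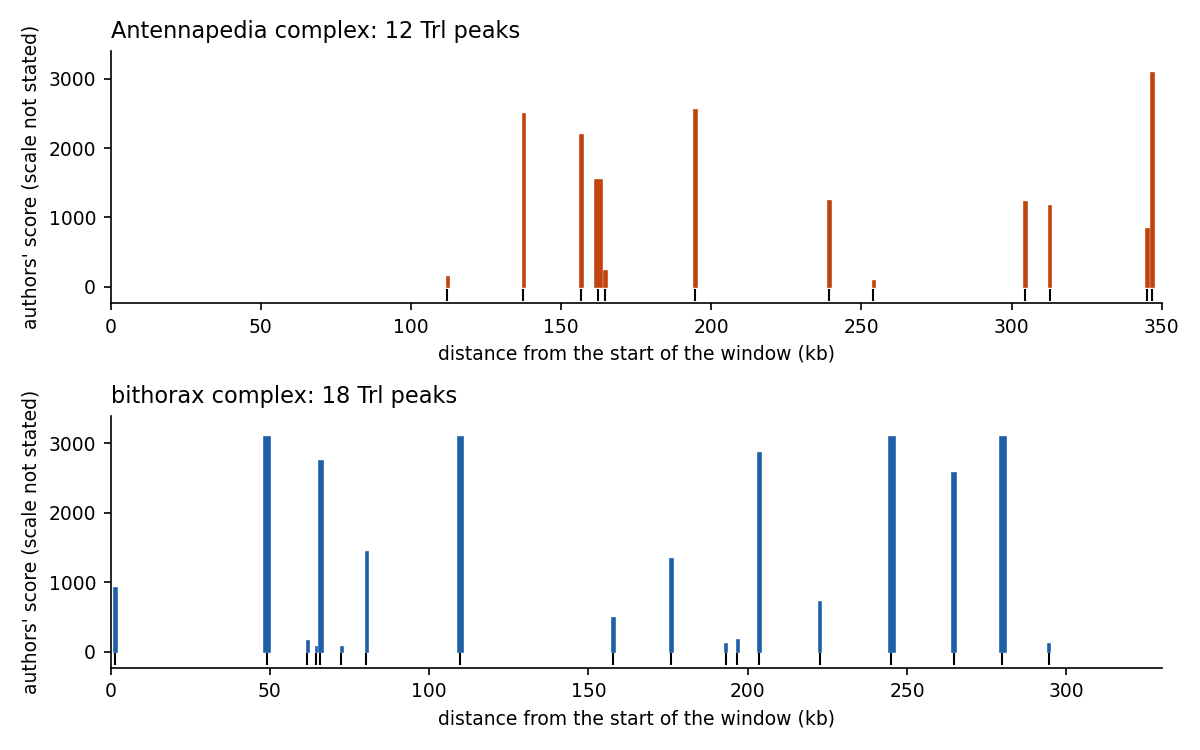
Trl peaks along the Antennapedia complex (upper) and the bithorax complex (lower). The horizontal axis is the distance from the start of the window in kb, each bar is 1 peak with its width to scale and its height the authors' score, and ticks under the bars mark the centres. The 12 peaks of the Antennapedia complex start 112 kb into the window, and the 18 of the bithorax complex run from 1.37 to 295 kb.

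In the Antennapedia complex no peak was called in the opening 112 kb. The peak-free stretch ran from 2419710 to 2591623, so it began before the window and measured 171.9 kb in all, which ranked 3 of 1242 stretches between neighbouring peaks on 3R by length. The last peak before the window, from 2418711 to 2419709, lay 60.8 kb outside it. On Release 6, lab and then pb are the Hox genes at the low end of the complex, and whether this stretch holds them was not determined.

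The 12 peaks of the Antennapedia complex are given here from low to high position, with the score that the authors attached to each. The scale of this score is not stated, so it serves only to rank peaks within the list, where it runs from 50.04 to 3233.06 with a median of 592.04. The first peak, from 2591624 to 2592501, was 878 bp wide and scored 162.22, below the lower quartile of the list, 164.8. The next, from 2616842 to 2618030, was 1189 bp wide and scored 2499.36. These 2 peaks stood alone, 25.4 kb apart, a weak call followed by a strong one.

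A cluster of 3 peaks followed, from 2635992 to 2645189, in which peaks covered 54.7% of 9.20 kb. It held the widest peak of either complex, 2650 bp from 2640865 to 2643514, with a score of 1557.67. Before it lay a peak of 1180 bp from 2635992 to 2637171, with a score of 2196.23, and after it, only 0.477 kb away, a peak of 1198 bp from 2643992 to 2645189 with a score of 242.22. Thus the widest call was not the highest-scored of its cluster. A peak of 1248 bp from 2673846 to 2675093 had its nearest other centre 29.9 kb away and the second-highest score of the complex, 2560.19.

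From 200 to 300 kb the Antennapedia complex was sparse. It held only 2 peaks there, 1313 bp from 2718569 to 2719881 (score 1255.45) and 805 bp from 2733613 to 2734417 (score 102.08), the narrowest and lowest-scored of the complex. On either side of this pair lay the longest peak-free stretches after the opening one, 49.3 kb from 2734418 to 2783698 and 43.5 kb from 2675094 to 2718568. Stretches of that size were common on the arm, ranking 145 and 179 of 1242.

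The far end of the window was denser again, with 4 peaks in its last 50 kb. A pair 8.28 kb apart measured 1308 bp from 2783699 to 2785006 (score 1236.01) and 1108 bp from 2792077 to 2793184 (score 1182.80). The last pair was nearly fused, with 0.141 kb between a peak of 1511 bp from 2824273 to 2825783 (score 843.03) and a peak of 1485 bp from 2825925 to 2827409. The latter scored 3100, a value that 858 peaks of the list share. The centre of this peak lay 3.33 kb inside the window's edge, and the first peak beyond, from 2862464 to 2863995 and also scored 3100, lay 33.2 kb outside it. On Release 6, Antp is the Hox gene at this end of the complex.

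By 50 kb segments from its start, the Antennapedia complex thus held 0, 0, 2, 4, 1, 1 and 4 peaks. The covered length was 12.6% in the fourth segment and 10.8% in the seventh, and it stayed at or below 4.13% in the others. Cut alike, the bithorax complex held 2, 5, 1, 4, 3 and 3 peaks, and none in its last 30 kb. Coverage ran from 3.36 to 10.5% in the 6 full segments, so none was empty.

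The bithorax complex opened with a peak 1.37 kb inside the window's edge, 1463 bp wide from 12480641 to 12482103, with a score of 926.92. Its neighbour outside the window, from 12472914 to 12474208, scored 1011.31 and lay 6.44 kb before the edge. After a peak-free stretch of 45.7 kb, from 12482104 to 12527755, came the widest peak of the complex, 2414 bp from 12527756 to 12530169, scored 3100. On Release 6, Ubx is the Hox gene at this end of the complex.

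The largest cluster of either complex followed, 5 peaks within 19.7 kb from 12541189 to 12560842, with 25.7% of that length covered. It combined strong and weak calls: the peak of 1384 bp from 12545143 to 12546526 scored 2754.19 and the peak of 1063 bp from 12559780 to 12560842 scored 1452.60. The other 3 were 949, 815 and 845 bp wide and scored 174.73, 79.85 and 81.87, of which the latter 2 were the lowest scores in either complex. A peak of 1679 bp from 12588841 to 12590519, scored 3100, then stood alone, with its nearest other centre 29.4 kb away.

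The longest peak-free stretch of the bithorax complex, 46.7 kb from 12590520 to 12637215, ranked only 162 of 1242 on 3R. Beyond it the calls were single peaks again, 1126 bp from 12637216 to 12638341 (score 506.16) and 1264 bp from 12655368 to 12656631 (score 1357.13). A second cluster held 3 peaks within 11.6 kb from 12672576 to 12684200, with 28.7% covered. It too combined strong and weak calls: the peak of 1379 bp from 12682822 to 12684200 scored 2869.51, and the others, 966 and 990 bp wide, scored 124.03 and 183.17.

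The high end of the bithorax complex, where Abd-B lies on Release 6, held mostly high-scored peaks that stood singly. A peak of 1112 bp from 12702007 to 12703118 scored 727.82. It was followed by peaks of 2047 bp from 12724092 to 12726138 and of 2400 bp from 12758767 to 12761166, both scored 3100, and between them by a peak of 1612 bp from 12743906 to 12745517 with a score of 2584.11. Each of these 4 had its nearest other centre 14.6 to 19.6 kb away. The last peak, 902 bp from 12774090 to 12774991, scored 133.36, and the remaining 35.0 kb of the window were free of calls. The first peak beyond the window, from 12812901 to 12814033 with a score of 1692.04, lay 3.47 kb past its edge.

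The 4 peaks of the bithorax complex scored 3100 were thus spread along the window, with centres at 48.96, 109.7, 245 and 280 kb from its start. Neighbours among them were 34.9 to 135 kb apart. In the Antennapedia complex only the peak at 347 kb reached this score. Of the 30 members, 5 (16.7%) scored 3100 or more, beside 17.6% of the 1213 peaks of 3R outside both complexes, so the share was near that background.

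Number, coverage, width and spacing were then set beside other windows of the same lengths on 3R, laid end to end in both directions from each complex as far as the outermost peaks of the arm and overlapping neither complex. There were 76 such windows of 350 kb and 80 of 330 kb. In number, the 12 peaks of the Antennapedia complex were more than in 20 windows, the same as in 3 and fewer than in 53, where the mean was 15.6 ± 5.98 (SD, 76 windows). With only peaks scored at or above the list's median, this order turned: the complex held 9 peaks where the median window held 8. The 18 peaks of the bithorax complex were more than in 53 windows, the same as in 7 and fewer than in 20, with a mean of 14.8 ± 5.27 (SD, 80 windows). Both counts over all peaks lay within 1 SD of the mean of their windows.

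Peaks covered 15.9 kb or 4.54% of the Antennapedia complex, less than in 58 of 76 windows, whose mean was 6.88 ± 3.06% (SD). They covered 24.4 kb or 7.40% of the bithorax complex, more than in 47 of 80 windows (mean 6.93 ± 2.90%, SD). Windows of 350 kb reached 16.4% with 31 peaks, from 11930000 to 12279999, and fell to 1.18% with 4 peaks, from 12980000 to 13329999. Those of 330 kb reached 17.2% with 29 peaks, from 11820000 to 12149999, and fell to 1.63% with 5 peaks, from 3240000 to 3569999. These windows were also highest and lowest in number, and both complexes lay inside the range.

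The median width was 1223 bp in the Antennapedia complex and 1195 bp in the bithorax complex, beside 1262 bp over the rest of 3R. The former was above 34 of 76 windows, which ran from 969 bp (22430000 to 22779999) to 1977 bp (22080000 to 22429999). The latter was above 32 of 80, which ran from 946.5 bp (270000 to 599999) to 1914 bp (22050000 to 22379999). The widest peaks of the arm lay in neither: 1 of 30 members (3.33%), the one of 2650 bp, was 2500 bp or wider, beside 11.3% of the other peaks of 3R, which reached 7851 bp. The count was 0 of 18 in the bithorax complex, and its widest peaks, 2414 and 2400 bp, fell just short of 2500 bp. These counts take peaks as called and may depend on where close peaks were split. Gaps of only 0.141, 0.306 and 0.477 kb parted some neighbouring members. Joined, the last pair of the Antennapedia complex would span 3.14 kb. Shares of wide regions with such peaks merged, in the complexes or on the rest of 3R, were not determined.

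**Figure D2:**
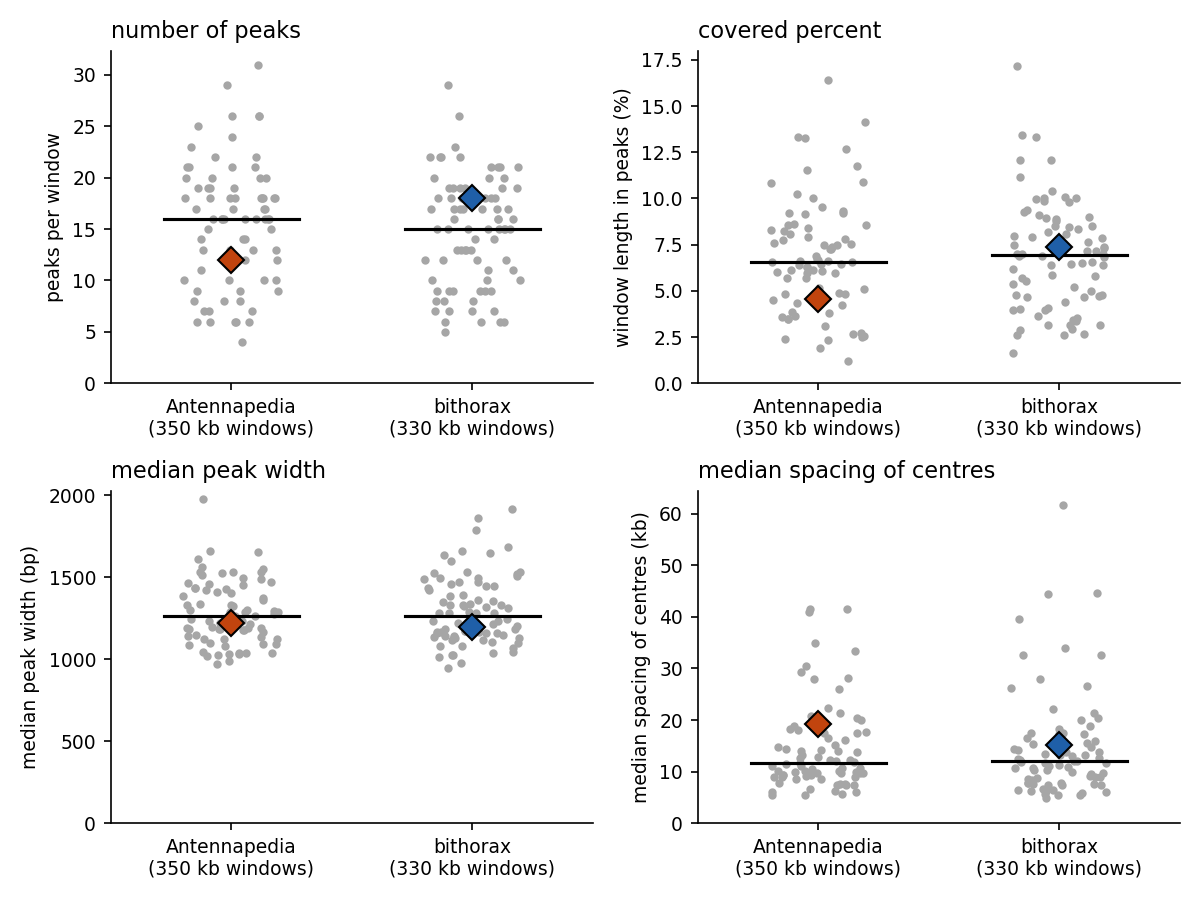
Number of Trl peaks, covered length (%), median peak width (bp) and median spacing of centres (kb) in the Antennapedia and bithorax complexes (diamonds) and in other windows of the same length on 3R (grey points, spread sideways at random, with their median as a bar). In all 4 panels the diamonds lie inside the cloud of the 76 or 80 other windows.

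Spacing was read in several ways. Between successive centres the median distance was 19.1 kb in the Antennapedia complex (11 spacings, 1.64 to 50.3 kb), above 61 of 76 windows, whose median was 11.7 kb and which ran from 5.49 kb (15080000 to 15429999) to 41.5 kb (1780000 to 2129999). For the bithorax complex it was 15.3 kb (17 spacings, 1.41 to 48.1 kb), above 55 of 80 windows, with a median of 12.0 kb and a range from 4.95 kb (13470000 to 13799999) to 61.7 kb (8520000 to 8849999). The mean distance was 21.3 kb in the Antennapedia complex and 17.2 kb in the bithorax complex, beside 22.5 kb over all of 3R. The means of the complexes leave out stretches that reach a window's edge, among them the opening 112 kb of the Antennapedia complex. They are thus unlike the mean of 3R, which counts every spacing. Per length, the Antennapedia complex had 34.3 peaks per Mb, beside 44.6 outside both complexes. The order turned for the bithorax complex with only peaks scored at or above the list's median. Its median spacing, 21074.5 bp, then fell below that of the median window, 24311.75 bp.

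Centres outside the windows were counted too. Another centre lay within 10 kb of 7 of 12 peaks in the Antennapedia complex and 9 of 18 in the bithorax complex. This was 53.3% of all members (95% Wilson interval 36.1 to 69.8%), beside 65.5% of the other peaks of 3R. The interval takes peaks as independent, but closeness is mutual between neighbours, so it does not measure the counting error here.

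The length of the longest peak-free stretch set the complexes on opposite sides of the arm's windows. Inside the window it was 111.6 kb in the Antennapedia complex, longer than in 61 of 76 windows (mean 85.7 ± 33.3 kb, SD). That of the bithorax complex was 46.7 kb, shorter than in 74 of 80 windows (mean 85.6 ± 27.8 kb, SD). Peak centres fell in 15 of the 33 bins of 10 kb of the bithorax complex, more than in 68 windows and as many as in 5, and in 10 of the 35 bins of the Antennapedia complex, more than in 21 windows and as many as in 5. These 2 measures were added after the data had been seen.

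Windows with many peaks have shorter gaps by construction, so the same values were also read in windows within 2 peaks of each complex. This comparison too was added after the data had been seen. Among 27 such windows, 26 had a longer peak-free stretch than the bithorax complex (median 71.9 kb, range 44.4 to 145.7 kb) and 25 a smaller median spacing (median 9.54 kb). At like number, its longest stretch was thus shorter and its median spacing wider than in most windows. Among 15 windows like the Antennapedia complex in number, 12 had a shorter stretch (median 87.1 kb, range 52.5 to 167.8 kb) and 11 a smaller median spacing.

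**Figure D3:**
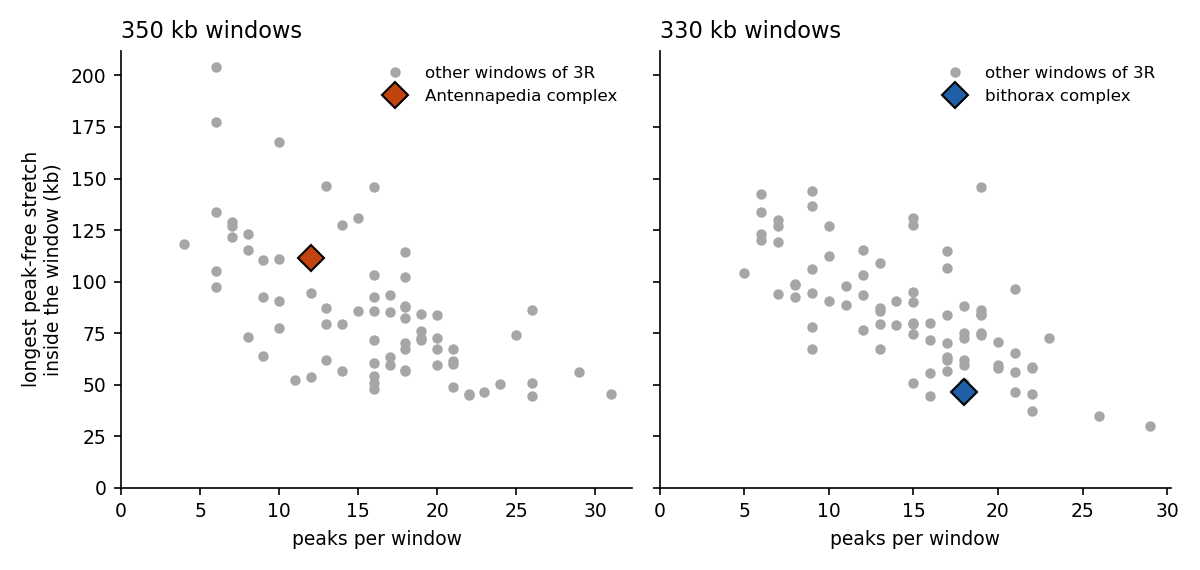
Longest peak-free stretch inside a window (kb) against the number of Trl peaks in it, for 350 kb windows (left) and 330 kb windows (right) of 3R. Grey points are other windows of the arm and diamonds the complexes. The bithorax complex, with 18 peaks and 46.7 kb, lies at the lower edge of its cloud, and the Antennapedia complex, with 12 peaks and 111.6 kb, in the upper part of its own.

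The windows on either side of the complexes gave a local comparison. The 350 kb before the Antennapedia complex held 18 peaks with a median spacing of 6.09 kb and a peak-free stretch of 114.4 kb, longer than the 111.6 kb inside the complex. The 350 kb after it held 16 peaks with a median spacing of 13.8 kb and no stretch over 47.9 kb. The 330 kb before the bithorax complex held only 9 peaks and a peak-free stretch of 143.98 kb, and the 330 kb after it 17 peaks and one of 114.7 kb. Thus the bithorax complex, without any stretch over 46.7 kb, lay between windows that each had one of more than 100 kb.

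By score, members lay at or above the list's median more often than other peaks of 3R, a description without interval or test. Of the 30, 20 (66.7%) scored at or above the list's median, 9 of 12 in the Antennapedia complex and 11 of 18 in the bithorax complex, beside 49.8% of the other peaks of 3R. The median score was 1245.73 in the Antennapedia complex and 1142.03 in the bithorax complex, beside 584.07 over the rest of 3R. At 3100 or more the shares were near each other, 16.7% of members beside 17.6% of the rest. At the lower end, 6 of 30 members fell below the list's lower quartile, 2 in the Antennapedia complex and 4 in the bithorax complex, beside 24.2% of the rest. Of the 4, 3 lay in clusters with a stronger call, and the other was the last peak of the window.

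Width and score rose together in the bithorax complex (Spearman's rho = 0.94 over 18 peaks of 1 list) and less so in the Antennapedia complex (rho = 0.45 over 12), beside 0.79 over the other peaks of 3R. The lower value of the Antennapedia complex went with its widest peak, which had a middling score, and with narrow peaks of high score. Peaks of 1 list share their libraries and their calling, so no p is attached.

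Most members were narrower than the median of other peaks of 3R with a like score. Among members scored at or above the list's median, the median width was 1308 bp in the Antennapedia complex (9 peaks) and 1463 bp in the bithorax complex (11 peaks), beside 1740.5 bp over 604 other peaks of 3R. Among the lower-scored, the values were 878 bp (3 peaks) and 949 bp (7 peaks), beside 1003 bp over 609. Each member was then set beside the 100 other peaks of 3R nearest to it in score, or, if scored 3100, beside the 203 others with that score, a comparison added after the data had been seen. Of the 30 members, 24 were narrower than the median of the peaks they were set beside, 9 of 12 in the Antennapedia complex and 15 of 18 in the bithorax complex. Many differences were small: the median member was wider than 31.5% of the peaks it was set beside.

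Large differences were seen among high-scored members. Peaks tied at 3100 are not ranked by the score, so they were not matched further for strength. In the Antennapedia complex, the peaks from 2616842 to 2618030 and from 2635992 to 2637171 were 488.5 and 473.5 bp narrower than the median of their comparison sets, and only 2 of 100 peaks of like score were narrower than each. The peak from 2825925 to 2827409 was 916 bp narrower than the median of 2401 bp among others scored 3100, and it is the one that a gap of 0.141 kb separates from its neighbour. Of the bithorax complex, the peak from 12588841 to 12590519 was 722 bp narrower than that median, and the peak from 12559780 to 12560842 was 401 bp narrower than its own, with 2 of 100 below it, while 2 of the 4 peaks scored 3100 lay within 13 bp of the median.

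Exceptions were few. The peak of 2650 bp in the Antennapedia complex was 1179 bp wider than the median of its comparison set and wider than 97 of its 100 peaks. The other 5 members wider than their medians exceeded them by 11 to 217.5 bp. Over all 30 members the median difference was -88.75 bp, with -130.25 bp in the Antennapedia complex and -57.75 bp in the bithorax complex.

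**Figure D4:**
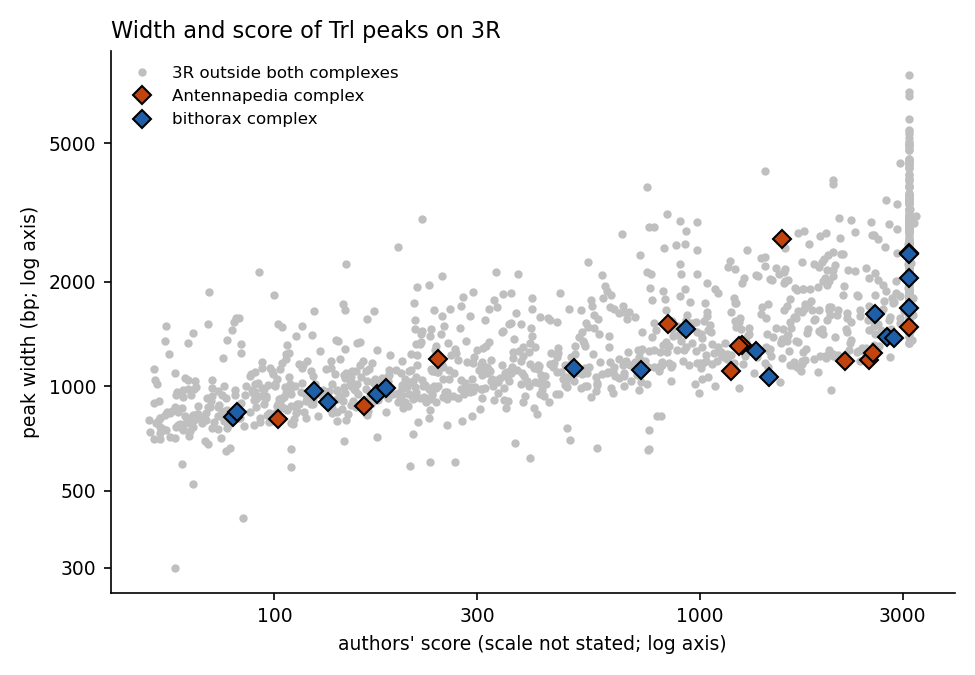
Width (bp, log axis) against the authors' score (log axis, scale not stated) for the 12 peaks of the Antennapedia complex, the 18 of the bithorax complex (diamonds) and the 1213 other peaks of 3R (grey). Most diamonds lie below the middle of the grey cloud at their score, and the peak of 2650 bp in the Antennapedia complex lies near its upper edge.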

How the data were processed

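The peak list deposited for the immunoprecipitate was made with MACS, per the file headers, from reads aligned with Bowtie to BDGP5, per the submitters' processing notes. Not given in the sources used here are versions, settings, filters, read numbers and how replicates were joined. The authors deposited a start, an end and a score per peak, without stating the scale of that score. Starts were taken as counted from 0. No genome or annotation of BDGP5 was used, so peaks were not assigned to genes and no sequence was read.

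A peak belonged to a window by its centre, and coverage used peaks clipped to the window. Other windows were laid end to end over the 27.9 Mb that the peaks of 3R span, and ties are given separately. They are not replicates, so ranks carry no p. Named were the 8 genes and, in each complex, the 5 widest and 5 highest-scored peaks, those beside the 3 longest peak-free stretches, the first and last, and groups with centres within 10 kb. Other peaks were added after their values were seen. The windows and lists were chosen with earlier results of these data known. The rank by number of peaks was checked on simulated lists with peaks of equal width placed evenly at random. Coverage and the longest peak-free stretch were checked on a small made-up list. Median width and median spacing were not checked in this way. Python 3.11.15, numpy 2.4.6, pandas 2.3.3, scipy 1.17.1 and matplotlib 3.10.9 were used.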

Additional observations from a re-analysis of the deposited data

How the results depend on the processing

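The ranks of number, coverage, width and spacing among other windows were read again under 6 alternatives, with ties counted as 0.5. This gave 48 values, and 37 stayed inside the 95% Wilson interval of the share first found. That interval takes windows as independent, which they are not, so it serves only as a fixed mark for the size of a move. With only peaks scored at or above the list's median, the share of windows below the Antennapedia complex moved from 28.3 to 65.8% for number, from 23.7 to 39.5% for coverage, from 44.7 to 7.89% for width and from 80.3 to 52.7% for spacing. In the bithorax complex the same restriction moved it from 70.6 to 85% for number, from 58.8 to 71.3% for coverage, from 40 to 22.5% for width and from 68.8 to 44.3% for spacing. Merging peaks within 1000 bp moved the bithorax complex to 82.5% for number and 55% for spacing. Narrowing the windows by 20 kb at each edge moved its width to 18.75%. The cause of these moves was not tested. Membership by overlap, windows every 10 kb and windows of 2L, 2R, 3L, 3R and X moved none of these 8 shares past its interval. Coverage uses clipped peaks under either rule of membership, so membership by overlap could not move it, and its values there are no check. Under all 6 alternatives the bithorax complex stayed among the windows with the shortest peak-free stretches, with 2.5 to 8.75% of windows below it. The stretch of the Antennapedia complex, longer than in 80.3% of windows, was longer than in 64.5% with higher-scored peaks only and than in 68.4% after narrowing, which removes 20 kb of it by construction. No paired analysis was possible because the immunoprecipitate alone has a peak list. For the same reason replicates could not be left out in turn, and what depth limits is unknown.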
